A study of Mus musculus with 8 samples.

Results

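The interaction between genotype and lipopolysaccharide (LPS) asks, gene by gene, whether the LPS response of kidney endothelium differed between SOCS3iKEO mice and wild-type (WT) mice. For each gene it was the SOCS3iKEO LPS level minus the SOCS3iKEO saline level, less the same difference in WT, on log2 values of all 8 libraries of the series, with 1 library per mouse. An interaction above 0 means a higher value in SOCS3iKEO LPS mice than the other 3 groups predict by addition. Of 12820 genes, 2366 (18.5%) passed the test (limma, Benjamini-Hochberg adjusted p below 0.05), 1149 above 0 (8.96%) and 1217 below 0 (9.49%), and edgeR called 2114 (16.5%), of which 1999 were shared in the same direction. By their LPS effects in the separate genotypes these sorted into 229 amplified, 153 blunted, 51 reversed and 1841 genotype-only genes, and 92 met none of those definitions.

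The groups were WT saline (2 mice), WT LPS (3), SOCS3iKEO saline (1) and SOCS3iKEO LPS (2). LPS was given as 1 intraperitoneal bolus of 250 µg in 250 µl, controls received 250 µl of saline, and kidneys were taken 14 h after the challenge. Every mouse carried an EGFP-tagged ribosomal protein, L10a, switched on in endothelium by the tamoxifen-inducible Cdh5-CreERT2 driver, so that RNA on tagged ribosomes could be purified from kidney lysate. SOCS3iKEO is the name in the labels for mice with inducible endothelial loss of Socs3, and the sources used here name neither its allele nor the age, strain and sex of each mouse. The SOCS3iKEO saline group held 1 library, so its spread was taken from the other groups and no value rests on a replicate of it.

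LPS is sensed on endothelium and other cells by TLR4 with CD14, and the signal activates NF-kB and interferon regulatory factors. Cytokines of the interleukin-6 family made in response act through the receptor subunit gp130, the JAK kinases and the transcription factor STAT3. STAT3 induces Socs3, whose protein binds gp130 and JAK and shuts the signal off, and endothelium that responds displays adhesion molecules, releases chemokines and loosens its junctions.

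Libraries held 7093794 to 14877519 reads over 23930 amplicons. Levels are given as scaled RPM, the deposited RPM (reads of an amplicon scaled to the library total) divided by a TMM factor that ranged from 0.671 and 0.709 in the SOCS3iKEO LPS libraries to between 1.25 and 1.26 in the saline libraries. The 10 highest genes took 4.87% to 5.07% of the reads in the saline libraries, 6.21% to 7.05% in the WT LPS libraries, and 14.97% and 12.7% in the SOCS3iKEO LPS libraries. With RPM as deposited, the median interaction over all genes was -0.44 in place of -0.01, and the calls split into 621 above 0 and 2561 below 0. Calls above 0 were then 19.5% of the total in place of 48.6%, so that directions below are relative to the TMM scaling. Y-linked genes had 3320 to 3987 reads in 3 libraries, WT saline 2 and WT LPS 2 and 3, and 1 to 3 reads in each of the others.

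Socs3 itself, on chr11:117966079-117970047 (mm10, minus strand), was read at 0.50 and 0.161 scaled RPM in WT saline, 9.94, 1.18 and 2.34 in WT LPS, 0.226 in SOCS3iKEO saline, and 3.53 and 2.50 in SOCS3iKEO LPS. The LPS groups of both genotypes overlapped, and all saline libraries were lower than all LPS libraries. The reads behind these levels were few: 9 and 3 in WT saline, 118, 17 and 26 in WT LPS, 2 in SOCS3iKEO saline, and 20 and 25 in SOCS3iKEO LPS. The LPS effect of Socs3 was 1.71 in WT and 1.70 in SOCS3iKEO on the log2 scale. Neither passed the test (limma adjusted p of 0.071 and 0.097). The interaction was -0.01 ± 0.95 (SE, limma adjusted p = 0.998). The sign of this value turned under several settings. The position of the amplicon relative to the deleted sequence is not given, so these reads do not check the genotype labels.

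In fitted size the interaction came mostly from a genotype difference seen after LPS. After LPS, 6501 genes (50.7%) differed between genotypes, and after saline 0 passed the limma test, with 423 at an unadjusted p below 0.05, 0 by edgeR and 5 by DESeq2. The saline comparison rests on 1 SOCS3iKEO library and has larger standard errors (for Cebpd 0.55 against 0.41 after LPS). Its count of 0 therefore does not show that the genotypes were alike after saline. Among the 2366 interaction genes the genotype difference after LPS was larger in size than that after saline in 2315, with median sizes of 1.84 and 0.25 on the log2 scale. These genes were selected on the gap between the same differences, and over all genes the median sizes were 0.73 after LPS and 0.24 after saline. In the LPS comparisons 2005 genes passed in WT (15.6%, 3 LPS against 2 saline libraries) and 5649 in SOCS3iKEO (44.1%, 2 against 1). The unlike numbers of libraries, and the runs of animal numbers described below, bear on these counts too. Of the 2005 WT responses, 1738 had the same sign in SOCS3iKEO, and 433 had an interaction that passed the test. Because both LPS effects also enter the interaction, the likeness of their values is a description: across all genes Pearson's r was 0.57 and Spearman's rank correlation 0.49.

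**Figure D1:**
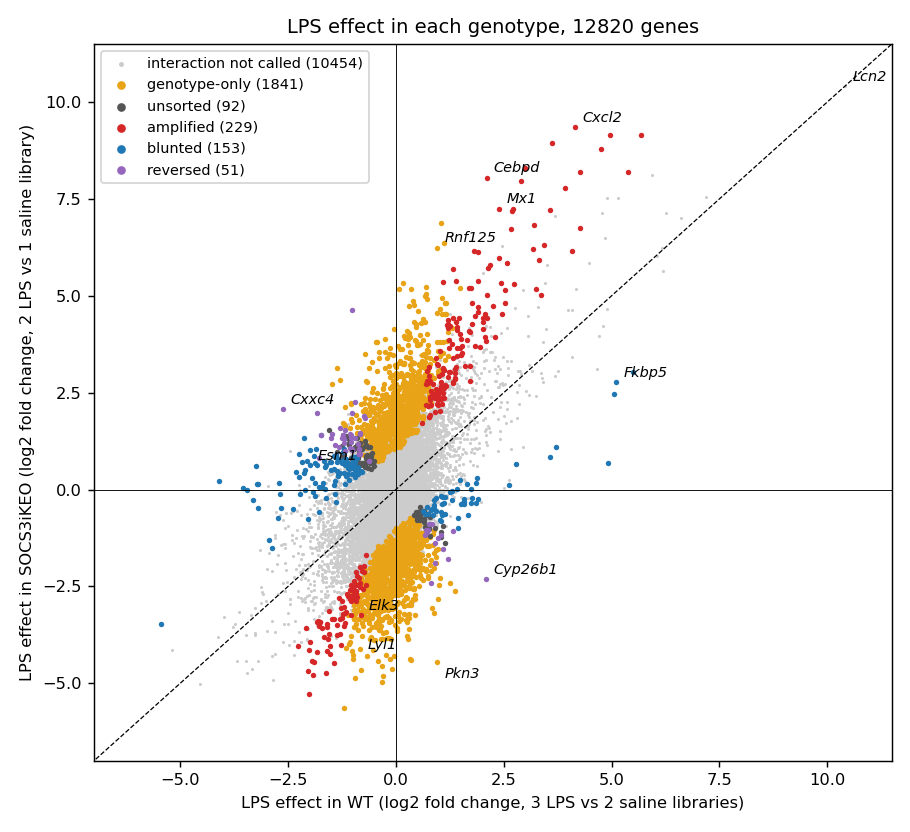
LPS effect of each of 12820 genes in WT (horizontal axis) and SOCS3iKEO (vertical axis), both as log2 fold changes, with 1 point per gene, coloured by class, and a dashed line where the effects are equal. Genotype-only genes (1841) lie in a band above and below the centre, amplified genes (229) lie farther from 0 on the vertical than on the horizontal axis, and 10454 grey points had no interaction that passed the test.

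In all 2366 genes both SOCS3iKEO differences (each LPS library minus the saline library) lay on the same side of all 6 WT differences. That was also so for 59.9% of all genes tested, and the single saline library enters both SOCS3iKEO differences. The median standard error of an interaction was 0.44, against 0.26 for an LPS effect in WT and 0.35 in SOCS3iKEO. At the edge of the threshold, Eps15l1 just passed with an interaction of -0.99 and Srsf1 just missed it with -1.59.

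The following limits bear on every interaction below. The animal numbers in the labels form 2 runs: WT saline and SOCS3iKEO LPS mice share 1 run, and WT LPS and SOCS3iKEO saline mice share the other. The interaction adds the groups of the first run and subtracts those of the second, so that a shift between the runs would enter through both genotypes and cannot be told apart from it. Each LPS effect and each genotype difference likewise sets 1 run against the other. The same limit therefore holds for them and for the classes sorted by them. Without WT saline 1 the calls numbered 122 above 0 and 66 below 0, and without the other libraries in turn they ranged from 426 and 293 (WT saline 2) to 1652 and 2040 (SOCS3iKEO LPS 2), while every one of the 2366 genes kept its sign in all 7 of these fits. In only the 5 libraries without Y-linked reads 0 genes passed by limma, with 1361 at an unadjusted p below 0.05. That fit had 1 library in each group but SOCS3iKEO LPS, and all 2366 genes kept their sign in it. With a term for Y-linked reads in the fit of all 8 libraries, 1126 genes were called above 0 and 1150 below 0. Of these, 2130 were shared with the 2366 in the same direction. That term rests on WT mice, since these reads were high in WT libraries only. The p-values measure the spread between these mice. In RNA purified on tagged ribosomes from kidney lysate, fewer cells of a type and less RNA per cell cannot be told apart.

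**Figure D2:**
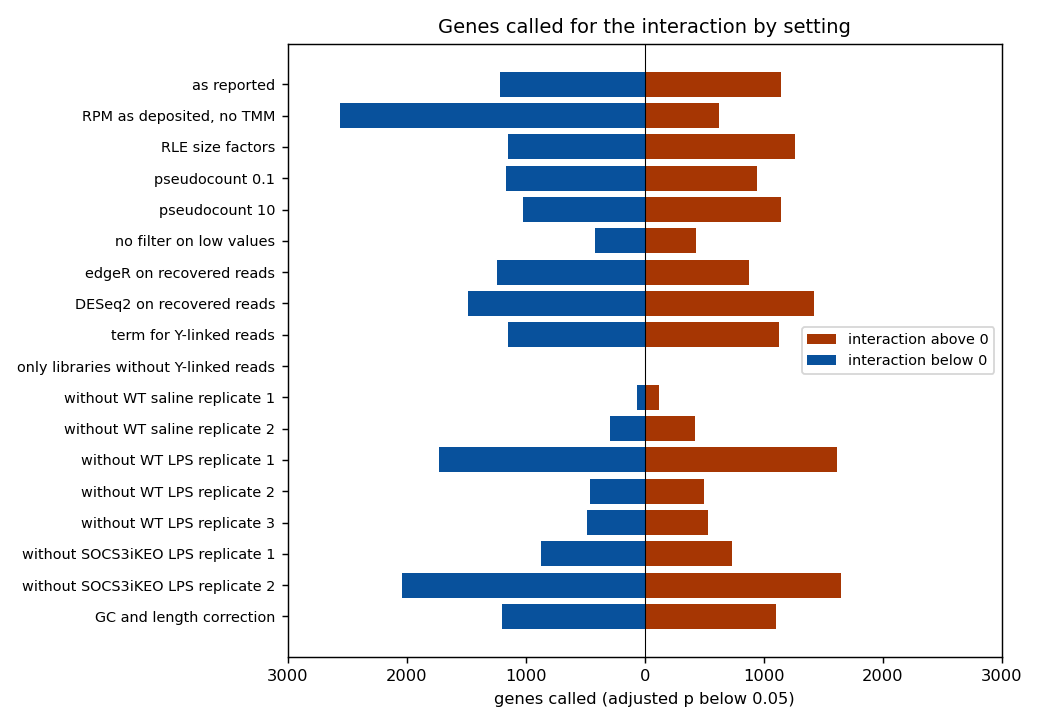
Number of genes whose interaction passed the adjusted p threshold of 0.05 under each setting, above 0 to the right and below 0 to the left. The calls as reported were 1149 and 1217, the fewest among fits that leave out 1 library were 122 and 66 (without WT saline 1), and deposited RPM without TMM scaling gave 621 and 2561.

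Amplified genes changed after LPS in WT and changed farther the same way in SOCS3iKEO. Of the 229, 150 rose, with a median log2 LPS effect of 1.38 in WT and 3.70 in SOCS3iKEO, and 79 fell, with medians of -1.21 and -3.18. Among genes with a symbol other than a clone name, those with the largest interactions that also passed on RPM as deposited, by edgeR and in every fit without 1 library were Cebpd, Cxcl2, Mx1 and Abtb2 among those that rose, and Elk3 among those that fell.

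Cebpd (chr16:15887286-15891031, mm10, plus strand) encodes C/EBP delta, a transcription factor of the acute-phase response. It was at 0.333 and 0.323 scaled RPM in WT saline, 9.10, 2.29 and 4.60 in WT LPS, 0.679 in SOCS3iKEO saline, and 454 and 432 in SOCS3iKEO LPS. The SOCS3iKEO LPS libraries were far above all others, and the WT LPS libraries were above all 3 saline libraries. LPS raised it by 2.10 in WT and 8.05 in SOCS3iKEO, an interaction of 5.94 ± 0.69 (SE, limma adjusted p = 0.0034). On this scale it was the largest of all 2366 genes in size. Each saline library held 6 reads of Cebpd, so these values depend on the pseudocount.

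Mx1 (chr16:97447035-97462907, mm10, minus strand), an interferon-induced antiviral GTPase, was at 0.555 and 0.538 scaled RPM in WT saline, 8.76, 7.91 and 5.23 in WT LPS, 1.36 in SOCS3iKEO saline, and 430 and 297 in SOCS3iKEO LPS. The 4 groups did not overlap. Its interaction was 4.85 ± 0.48 (adjusted p = 0.0031). Abtb2, an ankyrin repeat and BTB domain protein, ran from 4.79 to 6.28 scaled RPM in the 3 saline libraries, 25.0, 13.7 and 10.0 in WT LPS, then 336 and 304 with SOCS3iKEO LPS, with an interaction of 4.38 ± 0.57.

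Elk3, an ETS-family transcriptional repressor of endothelium, fell from 329 and 382 scaled RPM in WT saline to 178, 220 and 215 in WT LPS, and from 288 in SOCS3iKEO saline to 25.8 and 33.3 in SOCS3iKEO LPS. The WT LPS values lay below all saline values, and the SOCS3iKEO LPS values lay below those. The interaction was -2.45 ± 0.34 (adjusted p = 0.0057). Interactions larger in size, but without a call in every fit, were those of Fam57b (-3.12), Dapk2, a death-associated protein kinase (-3.04), and Mib2, a ubiquitin ligase that acts on Notch ligands (-2.72). Each of these passed in 6 of the 7 fits without 1 library. Their adjusted p without WT saline 1 was 0.0511, 0.0642 and 0.0756.

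**Figure D3:**
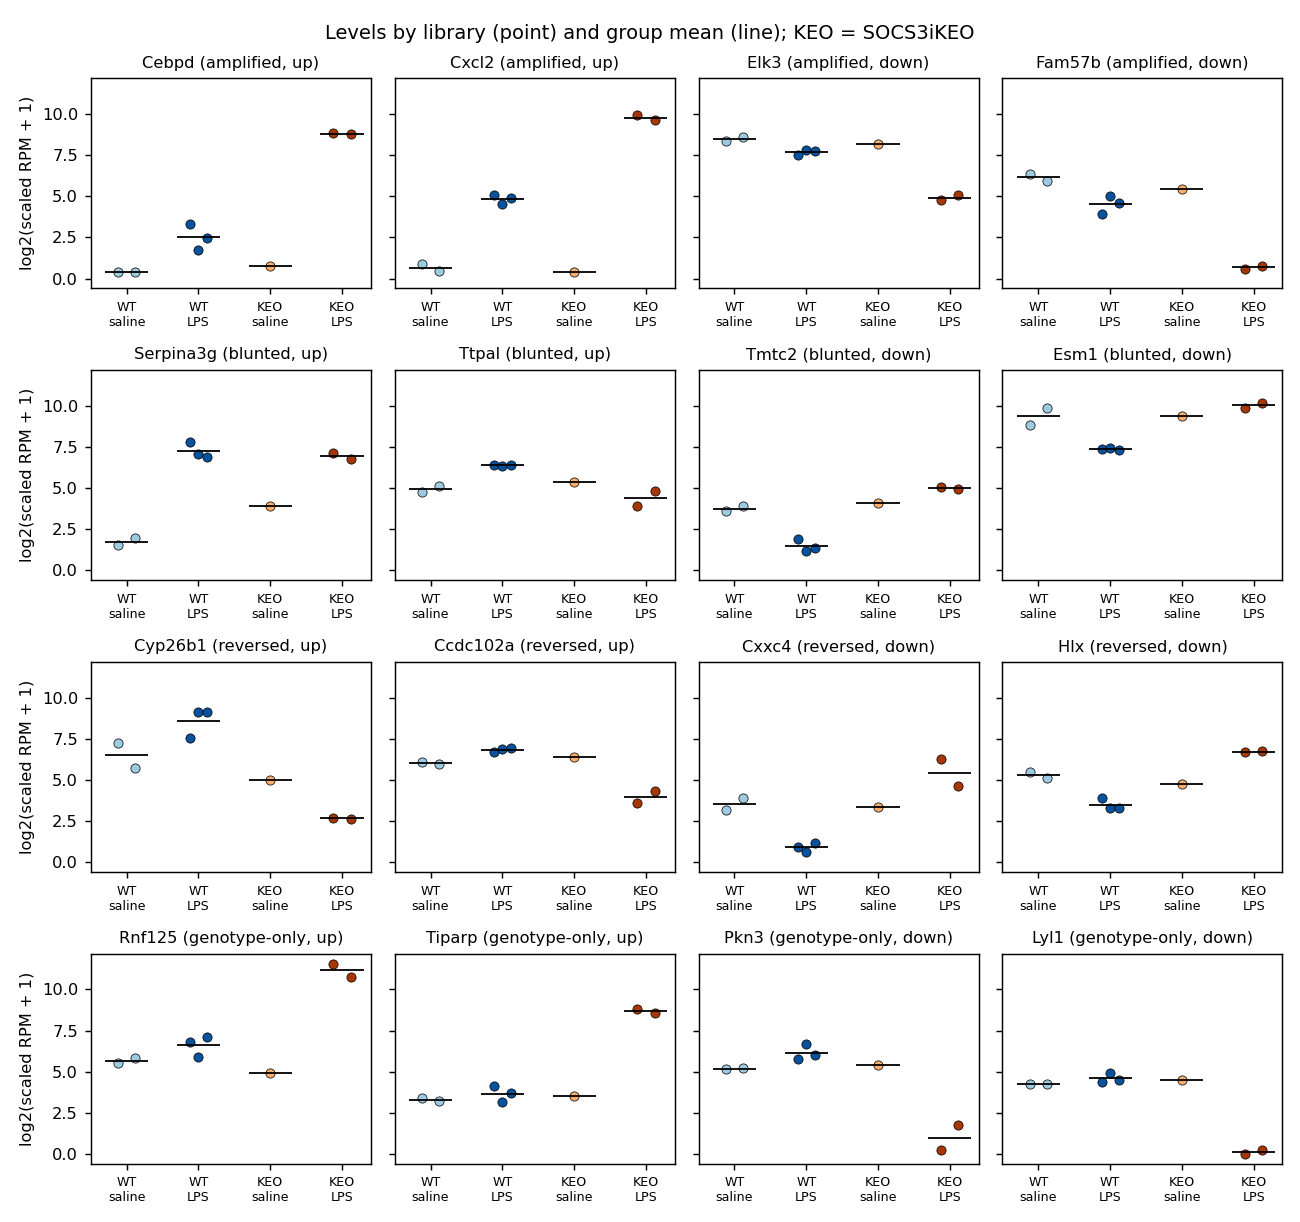
Level of 16 genes in each library as log2(scaled RPM + 1), 1 point per library and a line at the group mean, with 1 panel per gene and 4 panels per class row by row. KEO stands for SOCS3iKEO. In Cebpd and Cxcl2 the SOCS3iKEO LPS libraries exceed every other library, in Esm1 and Hlx only the WT LPS libraries lie below the saline libraries, and in Pkn3 and Lyl1 only the SOCS3iKEO LPS libraries are near 0.

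Blunted genes changed after LPS in WT and had a smaller effect in SOCS3iKEO. Of the 153, 51 had risen in WT (median effects 1.42 and -0.33) and 102 had fallen (median effects -1.44 and 0.49). In SOCS3iKEO 7 of the 153 passed the test of their own LPS effect, and in 120 the effects of the genotypes differed in sign.

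Esm1 (chr13:113209659-113218098, mm10, plus strand), encoding endocan, a proteoglycan secreted by VEGF-stimulated endothelium, showed this plainly. It was at 464 and 924 scaled RPM in WT saline, 165, 174 and 156 in WT LPS, 674 in SOCS3iKEO saline, and 930 and 1168 in SOCS3iKEO LPS. The WT LPS libraries were the lowest, and the SOCS3iKEO LPS libraries were the highest. Esm1 fell by 1.98 in WT, its SOCS3iKEO effect was 0.63 (adjusted p = 0.205), and the interaction was 2.61 ± 0.47 (adjusted p = 0.011).

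Tmtc2, a transmembrane protein that mannosylates cadherins, was at 11.2 and 13.8 scaled RPM in WT saline, 2.78, 1.25 and 1.62 in WT LPS, 16.4 in SOCS3iKEO saline, and 33.2 and 30.4 in SOCS3iKEO LPS. The WT LPS libraries were the lowest of the 8. Its interaction was 3.17 ± 0.48. The other genes named in this direction were Nccrp1 (4.33) and Slc7a12, an amino acid transporter of kidney tubule (3.86). Without WT saline 1 the adjusted p of Nccrp1 was 0.0596. Slc7a12 lost its call in 4 of the 7 fits, those without WT saline 1, WT LPS 2, WT LPS 3 and SOCS3iKEO LPS 1, with an adjusted p of up to 0.0792.

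Among the blunted genes that rose in WT, Fkbp5 and Serpina3g had higher levels in the SOCS3iKEO saline library than in both WT saline libraries. Fkbp5, a co-chaperone of the glucocorticoid receptor and a classic glucocorticoid-induced gene, was at 39.6 and 43.2 scaled RPM in WT saline, 1280, 1309 and 1885 in WT LPS, 94.6 in SOCS3iKEO saline, and 531 and 799 in SOCS3iKEO LPS. LPS raised it by 5.11 in WT and 2.77 in SOCS3iKEO, with an interaction of -2.34 ± 0.42. Serpina3g, a serine protease inhibitor, was at 1.89 and 2.96 scaled RPM in WT saline, 218, 135 and 120 in WT LPS, 14.1 in SOCS3iKEO saline, and 141 and 107 in SOCS3iKEO LPS.

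The LPS groups of Serpina3g overlapped, and its interaction of -2.47 ± 0.49 rests on the level in the 1 SOCS3iKEO saline library. Serpina3g has near-identical relatives, and reads could be split among them. Ttpal (-2.43) and Mcam, the adhesion molecule CD146 (-2.20), rose in WT by 1.43 and 1.85, and their SOCS3iKEO effects, -0.99 and -0.35, did not pass the test. The adjusted p without WT saline 1 was 0.0662 for Fkbp5, 0.0763 for Serpina3g, 0.0697 for Ttpal and 0.12 for Mcam, which was called in 3 of the 7 fits.

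Reversed genes passed the test in both genotypes with opposite signs. The 51 comprised 15 that rose in WT and fell in SOCS3iKEO and 36 that fell in WT and rose in SOCS3iKEO. Median effects were 0.90 and -1.18 in the first set and -1.04 and 1.33 in the second.

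Cyp26b1 (chr6:84571414-84593908, mm10, minus strand), which degrades retinoic acid, was at 153 and 51.8 scaled RPM in WT saline, 190, 547 and 548 in WT LPS, 30.5 in SOCS3iKEO saline, and 5.48 and 5.20 in SOCS3iKEO LPS. It was highest in WT LPS and lowest in SOCS3iKEO LPS, and the SOCS3iKEO saline library was below both WT saline libraries. LPS raised it by 2.10 in WT and it fell by 2.32 in SOCS3iKEO, an interaction of -4.41 ± 0.88 (adjusted p = 0.0145).

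Hlx (chr1:184727140-184732619, mm10, minus strand), a homeobox transcription factor, was at 44.2 and 34.5 scaled RPM in WT saline, 13.8, 8.81 and 8.84 in WT LPS, 25.8 in SOCS3iKEO saline, and 102 and 107 in SOCS3iKEO LPS. The 4 groups did not overlap. The interaction was 3.80 ± 0.42 (adjusted p = 0.0031). Cxxc4, an inhibitor of Wnt signalling, gave 4.69, with 8.00 and 13.8 scaled RPM in WT saline, 0.926, 0.555 and 1.26 in WT LPS, 9.28 in SOCS3iKEO saline, and 76.0 and 23.4 in SOCS3iKEO LPS.

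Stc1, the glycoprotein hormone stanniocalcin 1, had an interaction of 3.22 ± 0.46, and Art3, of the ADP-ribosyltransferase family, one of 3.15 ± 0.46. In the other direction stood Ccdc102a (-3.24), Svil, the actin-binding supervillin (-3.00), and Fam111a, a protease of replicating cells (-2.81). Fam111a had an adjusted p of 0.0509 without WT saline 1, and the others passed in every fit without 1 library.

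Tnfrsf11b (chr15:54250619-54278484, mm10, minus strand), encoding the decoy receptor osteoprotegerin, had the largest interaction of the reversed genes. It was at 2.94 and 4.95 scaled RPM in WT saline, 1.85, 1.53 and 0.902 in WT LPS, 2.83 in SOCS3iKEO saline, and 90.1 and 99.6 in SOCS3iKEO LPS. WT LPS libraries were the lowest and SOCS3iKEO LPS libraries by far the highest. Its interaction was 5.66 ± 0.49. Of 14 tested TNF ligands and receptors 3 were called (21.4%, near the 18.5% of all genes), all above 0. With Tnfrsf11b these were Tnfrsf9 (3.63) and Cd40 (2.33), both costimulatory receptors. Tnfrsf11b alone of the 3 kept its call without WT saline 1, and Tnfrsf9 was not called by edgeR (adjusted p = 0.9999).

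Genotype-only genes passed the test of the LPS effect in SOCS3iKEO and not in WT. They made up 1841 of the 2366 calls, 805 that rose and 1036 that fell. Their WT effect was below 0.5 in size on the log2 scale in 1390, and the median effects were 0.07 in WT and 2.01 in SOCS3iKEO for those that rose, and -0.04 and -1.98 for those that fell.

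Rnf125 (chr18:20944625-20983862, mm10, plus strand), a ubiquitin ligase that acts on the viral RNA sensor RIG-I, was at 44.8 and 55.2 scaled RPM in WT saline, 111, 59.6 and 139 in WT LPS, 29.5 in SOCS3iKEO saline, and 3047 and 1740 in SOCS3iKEO LPS. Only the SOCS3iKEO LPS libraries stood far apart. Every WT LPS library was above both WT saline libraries, but the WT effect of 0.96 did not pass the test (limma adjusted p = 0.105). The interaction was 5.28 ± 0.61 (adjusted p = 0.0034). Tiparp, an ADP-ribosylating target gene of the aryl hydrocarbon receptor, ran from 7.91 to 16.8 scaled RPM in the other 6 libraries and was at 446 and 381 in SOCS3iKEO LPS, with an interaction of 4.81 ± 0.49.

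Sik1, a salt-inducible kinase, rose by 5.23 in SOCS3iKEO against a WT effect of 0.69, an interaction of 4.54 ± 0.48. Dusp14, a phosphatase of MAP kinases, rose by 3.82 against a WT effect of -0.44, an interaction of 4.25 ± 0.61. All 4 of these genes passed in every fit without 1 library, on RPM as deposited and by edgeR.

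Lyl1 (chr8:84701457-84704715, mm10, plus strand), a basic helix-loop-helix factor of blood and endothelial cells, was at 17.9 and 18.1 scaled RPM in WT saline, 19.9, 29.4 and 21.6 in WT LPS, 22.1 in SOCS3iKEO saline, and 0 and 0.20 in SOCS3iKEO LPS. It was nearly lost in the SOCS3iKEO LPS libraries and at a like level in the other 6. The fitted interaction was -4.75 ± 0.44 (adjusted p = 0.0031), a value that depends on the pseudocount because 1 library was at 0.

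Pkn3, a protein kinase of the PKC-related family, was at 34.7 to 103 scaled RPM in the other 6 libraries and at 0.177 and 2.40 in SOCS3iKEO LPS, with an interaction of -5.40 ± 0.73. Fhod1, an actin-assembling formin, was at 37.3 to 71.9 and then 0.707 and 2.90, with an interaction of -4.53 ± 0.57. Lyl1, Pkn3 and Fhod1 also passed in every fit without 1 library.

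The gene lists that follow held 705 tested genes in 35 lists, of which 150 were called above 0 and 42 below 0, or 27.2% against 18.5% of all genes, and 29 of the lists lay above that share. The lists were chosen with earlier results of these data known, so these shares describe them and are no test. Several lists had shares of 21.4% to 22.7%, near that of all genes. They were the interleukin-6 family, other JAK-STAT inhibitors, NF-kB, interferon-gamma, MHC class I, TNF, coagulation and endoplasmic reticulum chaperone lists. The cell death (14.3%) and heat shock (12.5%) lists lay below it. Of the 192 called list genes 29 remained without WT saline 1, 71 without WT saline 2, 103 without WT LPS 2, 104 without WT LPS 3, and 131 to 190 without 1 of the other LPS libraries. On RPM as deposited 139 of the 192 were still called in the same direction, and by edgeR on recovered reads 157.

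**Figure D4:**
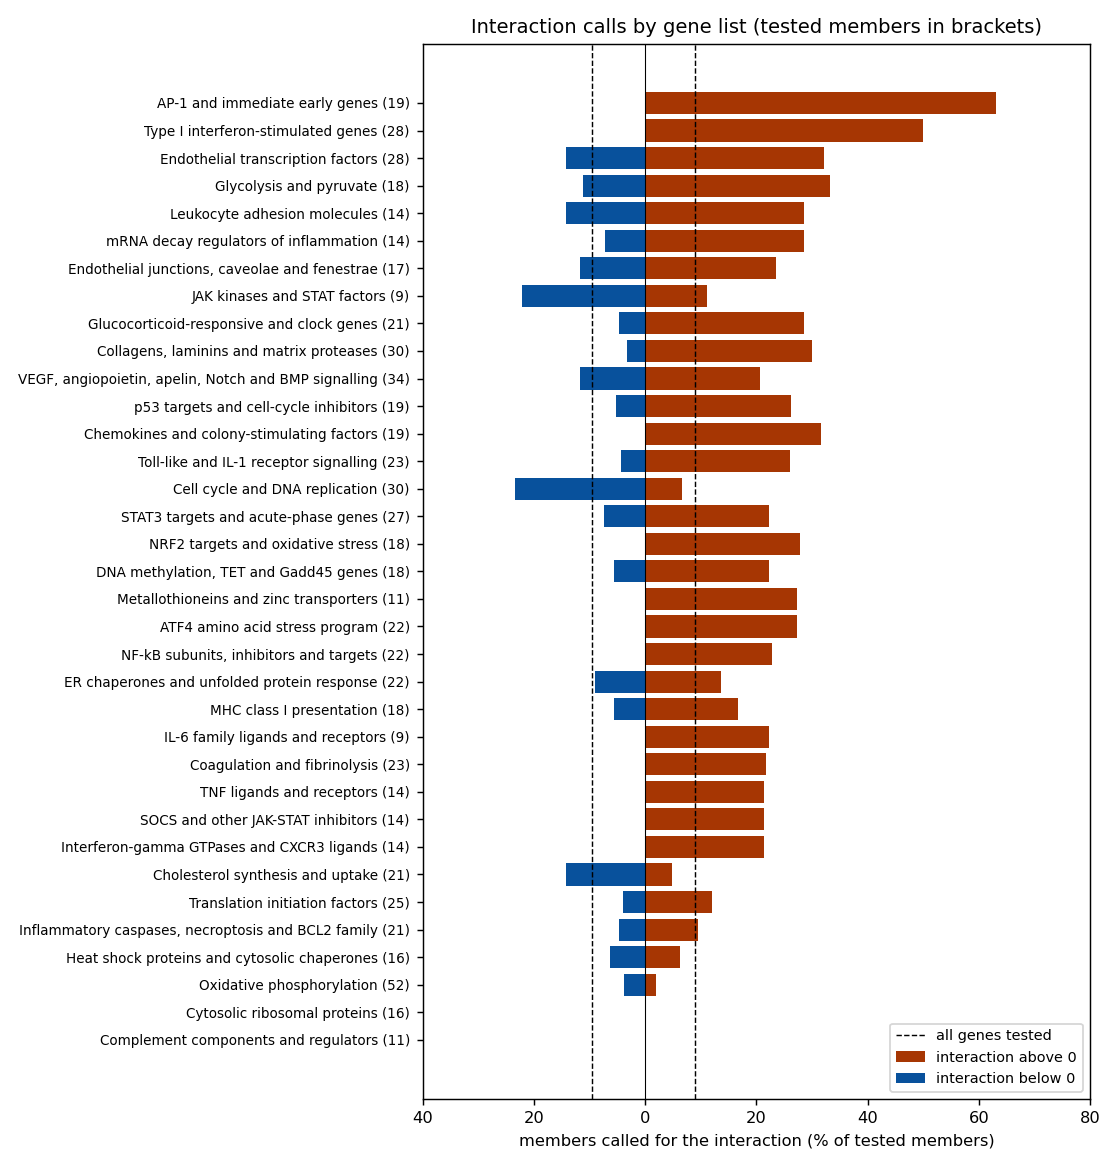
Share of each gene list whose members were called for the interaction, in percent of its tested members (number in brackets), above 0 to the right and below 0 to the left, with dashed lines at the shares over all genes tested (8.96% and 9.49%). AP-1 and immediate early genes (12 of 19) and type I interferon-stimulated genes (14 of 28) have the longest bars above 0, and cell cycle genes (7 of 30) the longest below 0.

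Among cytokines of the interleukin-6 family and their receptors, 2 of 9 tested members were called (22.2%, near the share over all genes), both above 0. Il6 was at 0 and 0.0538 scaled RPM in WT saline, 19.8, 2.78 and 5.95 in WT LPS, 0.339 in SOCS3iKEO saline, and 493 and 357 in SOCS3iKEO LPS. The SOCS3iKEO LPS libraries were the highest, and WT LPS lay between them and saline. Its interaction was 5.30 ± 0.98 (adjusted p = 0.011), a value that depends on the pseudocount because the saline libraries were at or near 0. The interaction of Il6st, which encodes gp130, was 1.12 ± 0.33. Neither was called by edgeR, with an adjusted p of 0.765 for Il6 and 0.0585 for Il6st, and on RPM as deposited Il6st was not called (0.56, adjusted p = 0.244).

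Kinases and STAT factors went both ways, with 3 of 9 called. Tyk2, the JAK kinase of interferon receptors, was at 44.2 and 54.4 scaled RPM in WT saline, 42.2, 143 and 113 in WT LPS, 45.7 in SOCS3iKEO saline, and 3.18 and 6.60 in SOCS3iKEO LPS. Only the SOCS3iKEO LPS libraries were low, and the interaction was -3.88 ± 0.79. Jak2, the kinase of gp130 and of several hormone receptors, moved the other way, with 19.1 to 42.8 scaled RPM in the other 6 libraries, 163 and 146 in SOCS3iKEO LPS, and an interaction of 2.64 ± 0.44. Stat6, the factor of interleukin-4 signalling, had an interaction of -1.32.

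Of other inhibitors of the pathway 3 of 14 were called (21.4%), all above 0: Socs2 (2.96), Socs6 (1.69) and the phosphatase Ptpn2 (1.11). STAT3 targets and acute-phase genes gave 6 calls above 0 and 2 below 0 among 27, with a list median of 0.39 beside -0.01 for all genes. After Cebpd the largest were Timp1, an inhibitor of metalloproteinases (3.47), Cebpb, its partner C/EBP beta (3.02), and Hamp, encoding hepcidin (2.51). Without WT saline 1, 0 calls of the first 3 lists remained, and of the 8 calls in the acute-phase list Cebpd alone did. Without WT saline 2 those 4 lists kept 1, 1, 0 and 3. Socs2, Ptpn2, Timp1 and Hamp were not called by edgeR, with adjusted p of 0.0802, 0.0518, 0.102 and 0.9999, and Ptpn2 was not called on RPM as deposited either.

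Of chemokines and colony-stimulating factors 6 of 19 were called, all above 0, with a list median of 0.85. Neutrophil attractants of the CXC family led them. Cxcl2 (chr5:90903871-90905938, mm10, plus strand) was at 0.833 and 0.377 scaled RPM in WT saline, 32.6, 21.7 and 28.3 in WT LPS, 0.339 in SOCS3iKEO saline, and 973 and 778 in SOCS3iKEO LPS. Cxcl1, its neighbour on chromosome 5, was at 11.8 and 9.15 scaled RPM in WT saline, 227, 181 and 260 in WT LPS, 8.82 in SOCS3iKEO saline, and 3241 and 2553 in SOCS3iKEO LPS. In both genes the LPS groups stood apart from saline and from each other, and the interactions were 5.20 ± 0.44 (adjusted p = 0.0028) and 3.91 ± 0.38.

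Csf3, encoding the neutrophil growth factor G-CSF, was at 0 in all 3 saline libraries, 94.8, 26.9 and 49.4 scaled RPM in WT LPS, then 577 and 549 with SOCS3iKEO LPS. It was found only in LPS libraries, with the higher levels in SOCS3iKEO, and its fitted interaction was 3.46 ± 0.72. That value depends on the pseudocount because all saline libraries were at 0, and edgeR did not call it (adjusted p = 0.9999). The fourth by size was the monocyte attractant Ccl12 (1.53). The 6 calls became 2, Cxcl1 and Cxcl2, without either WT saline library, and 3 without WT LPS 2 or WT LPS 3. By edgeR, Cxcl1 and Cxcl2 were likewise the 2 calls that remained.

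The promoters of Cxcl1, Cxcl2 and Il6 are shown because these 3 genes had large fitted interactions above 0 and each window holds a kB motif. The value for Il6 depends on the pseudocount and was not called by edgeR, as given above. The sequences are from RefSeq on GRCm38.p6, 250 bases before to 50 bases after the start, 5′ to 3′ on the gene's strand, with the kB motif in capitals. It was searched on both strands as GGG, any 2 bases and TTTCC. That motif was in 1.68% of the promoters of 10105 tested genes with a window, and a match is a description of the letters and no evidence of binding. The windows are chr5:90890995-90891294 (plus strand) for Cxcl1, chr5:90903649-90903948 (plus) for Cxcl2 and chr5:30012864-30013163 (plus) for Il6.
Cxcl1: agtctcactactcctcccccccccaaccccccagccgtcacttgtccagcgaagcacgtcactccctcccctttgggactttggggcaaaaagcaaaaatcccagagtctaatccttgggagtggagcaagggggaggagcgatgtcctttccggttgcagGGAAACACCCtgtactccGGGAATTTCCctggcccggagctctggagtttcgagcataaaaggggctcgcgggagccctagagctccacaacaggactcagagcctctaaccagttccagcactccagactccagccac
Cxcl2: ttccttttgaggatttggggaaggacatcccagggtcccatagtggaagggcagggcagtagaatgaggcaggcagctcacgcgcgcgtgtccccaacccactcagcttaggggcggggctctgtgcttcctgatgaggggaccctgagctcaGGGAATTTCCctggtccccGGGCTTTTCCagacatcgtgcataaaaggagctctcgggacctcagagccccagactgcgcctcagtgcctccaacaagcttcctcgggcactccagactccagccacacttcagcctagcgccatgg
Il6: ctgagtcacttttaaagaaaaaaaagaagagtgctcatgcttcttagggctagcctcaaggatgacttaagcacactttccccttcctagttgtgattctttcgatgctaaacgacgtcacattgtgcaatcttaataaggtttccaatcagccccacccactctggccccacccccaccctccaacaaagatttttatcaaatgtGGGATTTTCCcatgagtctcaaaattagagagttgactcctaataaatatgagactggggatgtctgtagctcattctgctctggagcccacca

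Leukocyte adhesion molecules gave 4 calls above 0 and 2 below 0 among 14, with a list median of 0.98. Selp, encoding P-selectin, had an interaction of 2.48 ± 0.71, Vcam1 one of 2.32 ± 0.53 and Cd44, a hyaluronan receptor, one of 1.83 ± 0.49, and Mcam was below 0 as given above. None of the 6 remained without either WT saline library. Selp, Cd44 and Sele, which made up the calls above 0 with Vcam1, were called neither on RPM as deposited (adjusted p of 0.0755, 0.0658 and 0.119) nor by edgeR (0.232, 0.244 and 0.136).

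Receptors and adaptors that sense LPS and interleukin-1 gave 6 calls above 0 and 1 below 0 among 23. Cd14, the LPS co-receptor, was at 14.3 and 22.7 scaled RPM in WT saline, 250, 65.9 and 115 in WT LPS, 21.3 in SOCS3iKEO saline, and 3964 and 2851 in SOCS3iKEO LPS. The groups after LPS did not overlap, and the interaction was 4.53 ± 0.79 (adjusted p = 0.0101). Tlr3 (1.88) and Il1r1 (1.73), receptors for double-stranded RNA and interleukin-1, were above 0, and the kinase Irak4 (-1.91) was below 0. Of these 7 calls 0 remained without WT saline 1 and 1 without WT saline 2, 3 remained on RPM as deposited and 4 by edgeR. Il1r1 was lost in both (adjusted p of 0.132 and 0.0512).

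NF-kB subunits, inhibitors and targets gave 5 calls of 22 (22.7%, near the share over all genes), all above 0, with a list median of 0.41. Rel, the c-Rel subunit, was at 15.01 to 26.2 scaled RPM in the other 6 libraries and 357 and 201 in SOCS3iKEO LPS, with an interaction of 3.42 ± 0.45. The negative regulators Tnfaip3 (2.48) and Nfkbia (2.02) and the co-regulator Nfkbiz (2.06) had risen in WT as well, by 2.26, 1.42 and 4.09. Rel alone kept its call without WT saline 1, and 3 of the 5 calls remained without WT saline 2.

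Type I interferon-stimulated genes stood out among the lists by count: 14 of 28 were called, all above 0, with a list median of 1.57. Of the 14, 11 were genotype-only genes. Rsad2, encoding the antiviral enzyme viperin, was at 170 and 279 scaled RPM in WT saline, 210, 217 and 99.7 in WT LPS, 173 in SOCS3iKEO saline, and 2964 and 1122 in SOCS3iKEO LPS. The WT LPS range overlapped saline, whereas both SOCS3iKEO LPS libraries were higher, with an interaction of 3.78 ± 0.77.

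Mx2, the paralog of Mx1, was at 4.33 to 10.3 scaled RPM in the other 6 libraries and 247 and 109 in SOCS3iKEO LPS, an interaction of 3.78 ± 0.62. Oasl1, of the oligoadenylate synthetase family, had one of 3.37 ± 0.62. Mx1 and Mx2 resemble each other, and amplicon reads could be split between them. The 14 calls became 3 without WT saline 1 (Isg20, Mx1 and Mx2), 5 without WT saline 2, and 9 without WT LPS 2 or WT LPS 3. All 14 were called by edgeR, and 11 on RPM as deposited.

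Genes of the interferon-gamma response and ligands of CXCR3 gave 3 calls of 14 (21.4%), all above 0, with a list median of 1.19. Cxcl10, which draws T cells, was at 24.6 and 35.5 scaled RPM in WT saline, 437, 177 and 150 in WT LPS, 62.7 in SOCS3iKEO saline, and 30290 and 8379 in SOCS3iKEO LPS. The latter pair differed widely from each other, and both were far above all others. The interaction was 5.07 ± 0.95 (adjusted p = 0.0118). Cxcl11 (5.84 ± 0.95) was at 4.75 to 27.8 scaled RPM in the other 6 libraries and 1140 and 404 in SOCS3iKEO LPS, and Gbp3, a guanylate-binding GTPase, had an interaction of 2.40. None of the 3 remained without WT saline 1, and Gbp3 was called neither on RPM as deposited (adjusted p = 0.0706) nor by edgeR (0.0639).

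In MHC class I presentation 3 of 18 were called above 0 and 1 below 0 (22.2%, near the share over all genes). H2-Q4 (1.76) and H2-D1 (1.42), which have near-identical relatives, and the peptide-loading protein Tapbp (1.48) were above 0, and the related Tapbpl (-1.09) was below 0. Without either WT saline library 0 of these 4 remained. H2-D1 and Tapbp were not called on RPM as deposited, and Tapbpl was not called by edgeR (adjusted p = 0.0532).

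The promoters of Cxcl10 and Rsad2 are shown because the genes belong to these lists and each window holds an interferon response motif. Sequences and windows are as above, here chr5:92348840-92349139 (minus strand) for Cxcl10 and chr12:26456403-26456702 (minus strand) for Rsad2, with the motif, TTTC, any 2 bases and TTTC on either strand, in capitals. The motif was in 3.06% of the promoters.
Cxcl10: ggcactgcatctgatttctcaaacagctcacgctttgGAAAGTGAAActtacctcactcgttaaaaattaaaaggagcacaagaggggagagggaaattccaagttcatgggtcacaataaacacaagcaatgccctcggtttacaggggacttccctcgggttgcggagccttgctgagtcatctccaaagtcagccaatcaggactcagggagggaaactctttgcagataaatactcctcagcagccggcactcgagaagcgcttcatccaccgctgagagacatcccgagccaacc
Rsad2: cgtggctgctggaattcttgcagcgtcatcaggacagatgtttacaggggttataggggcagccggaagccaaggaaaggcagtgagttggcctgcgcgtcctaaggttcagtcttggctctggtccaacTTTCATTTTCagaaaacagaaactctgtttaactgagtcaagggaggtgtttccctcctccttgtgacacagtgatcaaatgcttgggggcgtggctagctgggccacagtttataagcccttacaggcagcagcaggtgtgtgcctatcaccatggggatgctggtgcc

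Immediate early genes and AP-1 subunits had the largest share of calls among the 35 lists, 12 of 19, all above 0, with a list median of 2.44. In WT their median LPS effect was -0.06, and in SOCS3iKEO it was 2.71. Fos (chr12:85473890-85477273, mm10, plus strand) was at 54.4 and 19.6 scaled RPM in WT saline, 93.1, 15.1 and 28.8 in WT LPS, 17.3 in SOCS3iKEO saline, and 711 and 621 in SOCS3iKEO LPS. WT saline and WT LPS overlapped, and the SOCS3iKEO LPS pair was higher than both, with an interaction of 5.11 ± 1.09 (adjusted p = 0.0178).

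Egr1, a zinc-finger factor induced by growth factors, was at 392 and 252 scaled RPM in WT saline, 352, 63.3 and 79.8 in WT LPS, 165 in SOCS3iKEO saline, and 1312 and 1607 in SOCS3iKEO LPS. Its interaction was 4.49 ± 1.02. Nr4a1, an orphan nuclear receptor, had one of 4.18 ± 0.89, and Myc, which drives growth, one of 3.65 ± 0.85. Among the 12, Junb, with 205 to 280.1 scaled RPM in saline, 427 to 681 in WT LPS, then 4132 and 3331 with SOCS3iKEO LPS, alone remained without WT saline 1. Without WT saline 2, 6 of the 12 remained, and without WT LPS 3 or SOCS3iKEO LPS 1, 5 did.

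Clock and glucocorticoid-responsive genes gave 6 calls above 0 and 1 below 0 among 21, with a list median of 0.99. Dusp1, a MAP kinase phosphatase (3.84 ± 0.63), and the clock repressors Bhlhe40 (3.60 ± 0.61) and Cry2 (3.09 ± 0.35) rose in SOCS3iKEO and had WT effects of -0.54, -0.21 and 0.16. Dbp, a clock output factor, had an interaction of 3.29 ± 0.85, but its call was lost in 6 of the 7 fits without 1 library. Fkbp5 was the exception, below 0. Per1 and Cry2 were the calls that remained without WT saline 1.

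Proteins that destabilise inflammatory mRNA were called in 5 of 14 cases, 4 above 0. Zfp36, encoding tristetraprolin, was at 188 to 361 scaled RPM in the other 6 libraries and 2072 and 1389 in SOCS3iKEO LPS, with an interaction of 3.17 ± 0.43. Btg1 (2.73), the endonuclease gene Zc3h12a (2.07) and Btg2 (2.06) followed. Zfp36 and Btg1 remained without WT saline 1.

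Endothelial transcription factors gave 9 calls above 0 and 4 below 0 among 28, and their members split rather than moved together. Sox18 (chr2:181669836-181671640, mm10, minus strand), a SOX factor of vascular and lymphatic development, was at 715 and 760 scaled RPM in WT saline, 362, 909 and 772 in WT LPS, 624 in SOCS3iKEO saline, and 27.9 and 34.9 in SOCS3iKEO LPS. Only the SOCS3iKEO LPS libraries were low, and the interaction was -4.06 ± 0.59. Lyl1 (-4.75) fell likewise, whereas Klf6, a zinc-finger factor induced by injury (2.84 ± 0.52), and Foxo1, a factor of endothelial quiescence (2.59 ± 0.39), were above 0. Without WT saline 1, 5 of the 13 remained: Ets2, Elk3, Lyl1, Sox18 and Foxo1.

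Junctions and caveolae were called in 6 of 17 members, 4 above 0 and 2 below. Cav1, the coat protein of caveolae, was at 358 and 349 scaled RPM in WT saline, 231, 456 and 397 in WT LPS, 509 in SOCS3iKEO saline, and 31.3 and 62.5 in SOCS3iKEO LPS. Cdh5, encoding VE-cadherin, was at 247 and 283 scaled RPM in WT saline, 369, 313 and 340 in WT LPS, 269 in SOCS3iKEO saline, and 1494 and 1921 in SOCS3iKEO LPS. Both genes set the SOCS3iKEO LPS pair apart, in opposite directions, with interactions of -3.47 ± 0.58 and 2.29 ± 0.34. Cdh5 is also the gene whose promoter drives the Cre of all these mice.

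Occludin (Ocln, 2.75) and connexin 43 (Gja1, 2.56), proteins of tight and gap junctions, were above 0. Of the 6, Cdh5 alone remained without WT saline 1, and 2 did without WT saline 2.

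In VEGF, angiopoietin, Notch and BMP signalling 7 of 34 were called above 0 and 4 below 0. Ligands of BMP and Notch were among the highest: Bmp2 was at 1.35 to 2.61 scaled RPM in the other 6 libraries and 44.5 and 33.5 in SOCS3iKEO LPS (4.28 ± 0.42), and Dll1 had an interaction of 3.69 ± 0.51. Id2, a target of BMP signalling, had one of 3.78 ± 0.60. The receptor Notch4 ran the other way, from 80.4 to 182 scaled RPM in the other 6 libraries to 14.8 and 38.1 in SOCS3iKEO LPS (-3.01 ± 0.61). The 11 calls became 3 without WT saline 1 (Esm1, Dll1 and Bmp2) and 6 without WT saline 2, WT LPS 2 or WT LPS 3.

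Coagulation genes gave 5 calls of 23 (21.7%, near the 18.5% of all genes), all above 0, with a list median of 0.80. F3 (chr3:121723537-121735048, mm10, plus strand), encoding tissue factor, which starts coagulation, was at 1.55 and 2.10 scaled RPM in WT saline, 2.27, 1.53 and 2.98 in WT LPS, 0.905 in SOCS3iKEO saline, and 33.0 and 25.1 in SOCS3iKEO LPS. WT saline and WT LPS overlapped, and the interaction was 3.78 ± 0.48 (adjusted p = 0.00441). The protease-activated receptor F2rl1 (2.70), the inhibitor Tfpi2 (2.53) and the urokinase receptor Plaur (2.17) followed. F3 alone remained without WT saline 1, and 3 of the 5 did without WT saline 2.

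Collagens, laminins and matrix proteases gave 9 calls above 0 and 1 below 0 among 30, with a list median of 0.83. Sdc1, the heparan sulfate proteoglycan syndecan 1, was at 1.13 to 2.86 scaled RPM in the other 6 libraries and 36.4 and 31.4 in SOCS3iKEO LPS, an interaction of 3.72 ± 0.41. Nid2, of the basement membrane, had one of 2.94 ± 0.35 and the protease Adamts1 one of 2.92 ± 0.60. Nid2 and Sdc1 remained without WT saline 1, and 6 of the 10 did without WT saline 2.

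Metallothioneins and zinc transporters were called in 3 of 11 members, all above 0. Mt1 (chr8:94179082-94180327, mm10, plus strand), a metal-binding protein, was at 143 and 91.8 scaled RPM in WT saline, 8614, 1496 and 3662 in WT LPS, 124 in SOCS3iKEO saline, and 85280 and 58720 in SOCS3iKEO LPS. The 2 LPS groups did not overlap, and the interaction was 4.18 ± 1.01 (adjusted p = 0.0248). The zinc importer Slc39a8 (2.19) and the exporter Slc30a4 (1.71) were also called. None of the 3 remained without either WT saline library or without WT LPS 3. Mt1 alone of the 3 was called both on RPM as deposited and by edgeR.

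The promoter of Mt1 is shown because the gene reached the level just given and its window holds 3 metal response motifs. It spans chr8:94178839-94179138 (plus strand), with TGCACNC or TGCGCNC on either strand in capitals. So short a motif was in 36.4% of the promoters.
Mt1: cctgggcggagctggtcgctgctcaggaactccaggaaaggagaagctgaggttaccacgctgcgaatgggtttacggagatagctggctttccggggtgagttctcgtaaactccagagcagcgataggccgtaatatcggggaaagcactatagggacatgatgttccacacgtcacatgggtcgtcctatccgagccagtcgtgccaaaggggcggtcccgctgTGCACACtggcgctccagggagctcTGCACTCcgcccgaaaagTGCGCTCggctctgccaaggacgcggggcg

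Stress programs of protein synthesis were called above 0 in some members. In the ATF4 amino acid response it was 6 of 22, led by Ppp1r15a, encoding the eIF2 phosphatase subunit GADD34 (3.65 ± 0.45), with 62.6 to 135 scaled RPM in the other 6 libraries and 656 and 787 in SOCS3iKEO LPS. The amino acid transporter Slc7a5 (2.69), Sesn2 (1.88) and Atf4 itself (1.76) followed. Of NRF2 targets and oxidative stress genes 5 of 18 were called, all above 0, among them the antioxidant enzymes Sod2 (2.29), Txnrd1 (2.21), Cat (1.81) and Gclc (1.71).

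Chaperones of the endoplasmic reticulum were called in 5 of 22, 3 above 0 with Herpud1 (1.59) and Hspa5 (1.30), and 2 below 0, Sdf2l1 (-2.53) and Pdia4 (-1.69). Heat shock proteins gave 2 of 16 (12.5%, below the share over all genes), the co-chaperones Bag3 (2.39) and Ahsa1 (-1.51). Without WT saline 1, Ppp1r15a alone of these 18 calls remained. Of the genes named here, the calls of Slc7a5, Atf4, Cat, Gclc, Herpud1 and Hspa5 were lost on RPM as deposited, and by edgeR those of Slc7a5, Gclc and Hspa5.

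Glycolysis and pyruvate genes were called in 8 of 18, 6 above 0 and 2 below. Hexokinase 2 (Hk2, 3.46 ± 0.78), the pyruvate dehydrogenase kinase Pdk4 (2.91 ± 0.64), phosphofructokinase Pfkp (2.87 ± 0.50) and Ldhb (2.39 ± 0.65) were the largest. None remained without WT saline 1, and 1 did without SOCS3iKEO LPS 1. Hk2 was not called by edgeR (adjusted p = 0.125), and Ldhb was not called on RPM as deposited (0.0554). Cholesterol synthesis genes were called in 4 of 21 (19.0%), near the share over all genes, with the enzymes Lss (-2.31), Pmvk (-2.29) and Mvk (-2.13) below 0, and the exporter Abca1 above 0 (2.48). Pmvk remained without WT saline 1.

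Cell cycle and DNA replication genes were the list with the most calls below 0, 7 of 30, with 2 above 0 and a list median of -0.78. Ccna2, encoding cyclin A2, was at 16.9 and 26.3 scaled RPM in WT saline, 24.3, 28.9 and 25.5 in WT LPS, 29.0 in SOCS3iKEO saline, and 0.707 and 4.30 in SOCS3iKEO LPS. Only the SOCS3iKEO LPS pair was low, and the interaction was -3.61 ± 0.72. Birc5, the mitotic protein survivin (-3.61 ± 0.78), and Ccnb2, a mitotic cyclin (-2.45 ± 0.58), were alike. Of the 9 calls none remained without WT saline 1 and 2 did without WT saline 2.

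Among p53 targets and cell-cycle inhibitors 5 of 19 were above 0, with Plk2 (2.83) and Cdkn1a, encoding p21 (2.51), and 1 was below 0, Cdkn2c (-2.37). Regulators of cell death were called in 3 of 21 (14.3%), below the share over all genes. The pro-apoptotic Bcl2l11 (3.5 ± 0.44) and the survival factor Mcl1 (1.77) were above 0, and the pro-apoptotic Bad (-1.77) was below 0. Of DNA methylation, TET and Gadd45 genes 4 of 18 were above 0, the stress proteins Gadd45g (3.00), Gadd45a (1.62) and Gadd45b (1.57) and the methyl-CpG binding protein Mbd2 (1.47), and 1 was below 0, the methyltransferase Dnmt3a. Bcl2l11 and Gadd45g remained without WT saline 1, and no call of the p53 list did. On RPM as deposited Mcl1, Gadd45a, Gadd45b and Mbd2 were not called.

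The other lists under the background share of 18.5% had few calls. Oxidative phosphorylation had 3 of 52 called, cytosolic ribosomal proteins 0 of 16, complement 0 of 11, and translation initiation factors 4 of 25, with Eif6 (2.0) the largest, a call lost on RPM as deposited (adjusted p = 0.0524). The medians of the first 3 lists were 0.17, 0.39 and 0.33.

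Proximal tubule markers moved with the interaction. Of 15 proximal tubule markers 11 were called (73.3%, against 18.5% of all genes), all above 0, with a list median of 2.20. The median LPS effects were -1.08 in WT and 1.01 in SOCS3iKEO. Their summed level in deposited RPM was 2482 and 2658 in WT saline, 1226, 1404 and 1991 in WT LPS, 2440 in SOCS3iKEO saline, and 3699 and 2877 in SOCS3iKEO LPS. The WT LPS libraries had the lowest sums and the SOCS3iKEO LPS libraries the highest. In scaled RPM the sums were 1958 to 2128 in saline, 1233 to 1975 in WT LPS, then 5510 and 4058 with SOCS3iKEO LPS.

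Slc34a1, the phosphate transporter that defines the proximal tubule, was at 65.7 and 50.6 scaled RPM in WT saline, 19.1, 17.4 and 27.7 in WT LPS, 64.8 in SOCS3iKEO saline, and 183 and 117 in SOCS3iKEO LPS. It is a reversed gene, as is Miox, and Gatm and Slc5a12 are blunted genes that fell in WT, so tubule markers are among the genes of these classes. Of markers of the loop of Henle and distal tubule 4 of 11 were called above 0 (36.4%, against 18.5% of all genes). Tubule injury had 2 calls of 10 (20%, near that share), Sox9 and Vcam1, and the collecting duct 1 of 10 (10%, below it). No podocyte (7), mural and mesangial (8), fibroblast (5) or macrophage and monocyte (8) marker tested was called. In 3 short lists 1 marker was called above 0: S100a9 of 5 neutrophil, Itga2b of 4 red cell and platelet, and Upk1a of 2 urothelium markers. Those calls were lost on RPM as deposited and by edgeR. The part of tubule RNA in the interactions of other genes was not tested. None of the 11 proximal tubule calls remained without WT saline 1, and 5 did without WT saline 2.

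**Figure D5:**
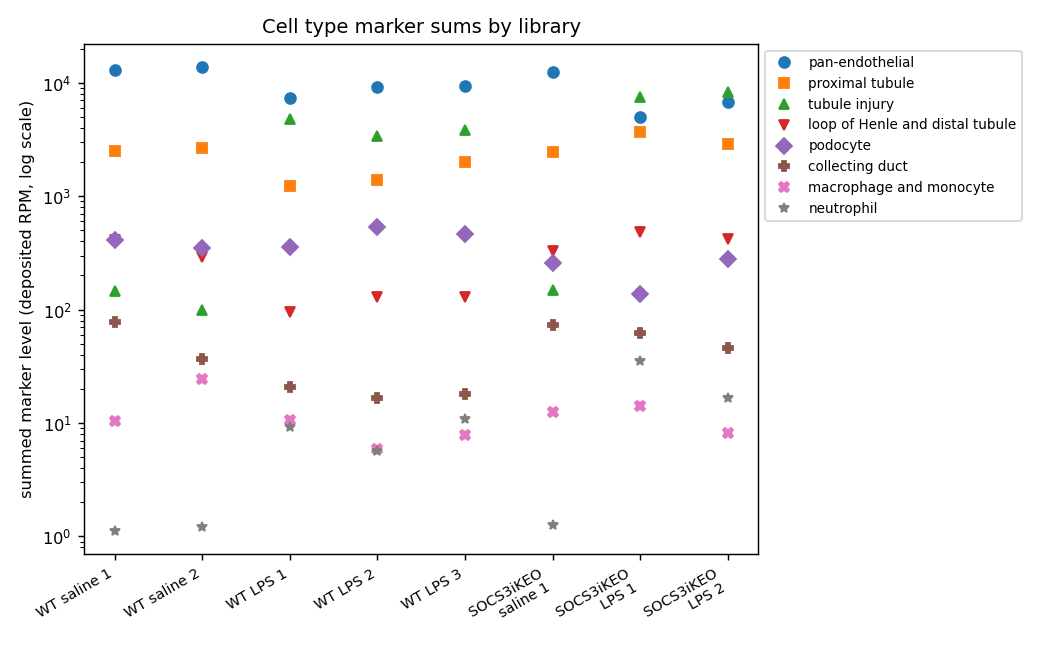
Summed level of 8 cell type marker lists in each library, in deposited RPM on a log scale, with 1 symbol per list. Proximal tubule sums are 1226 to 1991 in WT LPS, then 2877 and 3699 with SOCS3iKEO LPS, pan-endothelial sums are lower in LPS than in saline libraries, and macrophage and neutrophil sums do not exceed 35.3 in any library.

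The sum of pan-endothelial markers, in deposited RPM, was 12974 and 13755 for WT saline, 7369 to 9423 in WT LPS, 12366 in SOCS3iKEO saline, and 5040 and 6742 in SOCS3iKEO LPS, and none of the 17 was at 0 in all libraries. In scaled RPM, the scale of the gene levels, the sums were 9923 to 11012 in saline, 7410, 8574 and 9349 in WT LPS, then 7508 and 9511 with SOCS3iKEO LPS, so that the LPS groups overlapped. Of 17 members 4 were called above 0 (Cdh5, Robo4, Esam and Flt1) and 3 below 0 (Ramp2, Egfl7 and Tek), with a list median of -0.14. That is 41.2% of the list, against 18.5% of all genes. Esam and Flt1 were called neither on RPM as deposited nor by edgeR. Of 9 arterial markers 5 were called (55.6%), Sema3g (-3.03), Bmx (-2.15) and Dll4 (-1.70) below 0, and Sox17 (1.43) and Ltbp4 (1.27) above 0. Sox17 and Ltbp4 were not called on RPM as deposited, and Sox17 was not called by edgeR. Of 5 glomerular endothelial markers 1 was called, Lpl (2.34), and of 5 lymphatic markers 0. In deposited RPM, neutrophil markers summed to 1.12 to 1.27 in saline, 5.63 to 10.8 in WT LPS, then 35.3 and 16.7 with SOCS3iKEO LPS, with Cxcr2 at 0 in all libraries. In scaled RPM these sums were 0.889 to 1.02, 5.27 to 10.7, then 52.6 and 23.6. Macrophage and monocyte markers summed to 5.92 to 24.5 in deposited RPM in all 8 libraries.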

How the data were processed

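RNA on tagged endothelial ribosomes was measured with a targeted mouse amplicon panel, per the labels' protocols, and the submitters' processing notes list the Transcriptome Analysis Console and mm10 without their roles. The deposited table gives RPM for each amplicon, its reads scaled by the authors to the library total. Aligner and counter: not given in the sources used here. All values (100%) came out as whole reads within 0.1 read, and these reads were recovered. A spreadsheet had turned 27 names into dates, which were restored.

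Genes were kept by filterByExpr of edgeR 4.0.16 (minimum count 10, minimum total 15). RPM was divided by TMM factors, and limma 3.58.1 (R 4.3.3) with a trended prior was fitted to log2(scaled RPM + 1) over all 8 libraries, 1 mean per group and 4 residual degrees of freedom, with Benjamini-Hochberg adjustment over 12820 genes. Fold changes on this scale understate the change of low genes. Errors are standard errors of the fit. Alternatives were other scalings and pseudocounts, no filter, edgeR and DESeq2 1.42.0 on recovered reads, a term for Y-linked reads, each library left out in turn, and a GC and length correction added after the data were seen. The code was tested on simulated data.

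Named were Socs3 and, per class and direction, the 4 genes with the largest interactions at a mean log2 value of 3 or more. Both SOCS3iKEO differences had to lie on one side of all 6 WT differences, as they did for 59.9% of all genes. A call was also required under RPM as deposited, edgeR and every fit without 1 library. Where fewer met this, the rest were taken without the conditions on RPM as deposited and on leaving out libraries. Clone and predicted-gene symbols were skipped. Each pathway list gave up to 4 called members. Other named genes were chosen after their values were seen. Members and lists were chosen with earlier results of these data known. Amplicon reads are PCR copies without molecular identifiers, and strand is not given, so overlapping or near-identical genes may share reads. Promoters are from RefSeq. They were found for 10105 of the 12820 genes (78.8%), too few for a comparison of motif shares between classes, which was left void.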

Additional observations from a re-analysis of the deposited data

Results flagged for a closer look

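Results are listed here because the LPS effect itself differed between genotypes by the limma test of that difference. This held for 1149 genes above 0 and 1217 below 0.

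Among amplified genes the differences were 5.94 for Cebpd, 5.20 for Cxcl2, 4.85 for Mx1 and 4.38 for Abtb2, and -2.45 for Elk3, -3.12 for Fam57b, -3.04 for Dapk2 and -2.72 for Mib2. Blunted genes gave -2.47 for Serpina3g, -2.43 for Ttpal, -2.34 for Fkbp5 and -2.20 for Mcam, and 3.17 for Tmtc2, 2.61 for Esm1, 4.33 for Nccrp1 and 3.86 for Slc7a12. Reversed genes gave -4.41 for Cyp26b1, -3.24 for Ccdc102a, -3.00 for Svil and -2.81 for Fam111a, and 4.69 for Cxxc4, 3.80 for Hlx, 3.22 for Stc1 and 3.15 for Art3. Genotype-only genes gave 5.28 for Rnf125, 4.81 for Tiparp, 4.54 for Sik1 and 4.25 for Dusp14, and -5.40 for Pkn3, -4.75 for Lyl1, -4.70 for Arhgap27 and -4.53 for Fhod1.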

How the results depend on the processing

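No paired analysis was possible because the labels give animal numbers and no replicate number shared between groups. Leaving out the single SOCS3iKEO saline library was also not possible. RPM as deposited gave 621 calls above 0 and 2561 below 0, with 454 amplified genes. With no filter on low values, and so more genes tested, the calls were 430 and 414, sorted into 45 amplified, 39 blunted, 16 reversed and 743 genotype-only genes. DESeq2 gave 383 amplified, 256 blunted and 97 reversed genes. With a term for Y-linked reads in all 8 libraries, the calls were 1126 above 0 and 1150 below 0. Only the 5 libraries without Y-linked reads gave 0 calls above and 0 below 0, and so 0 genes in each class. Over the 7 fits that leave out 1 library, with fewer samples each, the counts ran from 122 to 1652 above 0 and from 66 to 2040 below 0, and from 8 to 315 amplified, 5 to 291 blunted, 3 to 156 reversed and 172 to 2791 genotype-only genes. The interaction of Socs3, -0.01 as reported, was 0.053 with RLE size factors, 0.24 with a pseudocount of 0.1, 0.045 by DESeq2, 0.18 with the GC and length correction, and from -0.50 to 0.67 over the fits that leave out 1 library, among them 0.17 without WT saline 2, 0.67 without WT LPS 1 and 0.20 without SOCS3iKEO LPS 2. It passed the test in none of these. The cause of these shifts was not tested. The 32 other named genes kept their direction under every setting run, and 60 of their values no longer passed the threshold. Of the counts per gene list, 411 moved by more than 1.5 times and 779 did not.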
